A study of Mus musculus with 6 samples.

Results

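The 50 genes described here encode proteins of the nucleolus and of ribosome assembly. They were taken by name, as the rows of the count table whose Entrez identifier belongs to a listed mouse symbol, and make up 50 of the 23725 genes in the table. The rule itself uses no measured value. Their counts come from 3T3-L1, a fibroblast line of mouse embryos, exposed for 24 h to extracellular vesicles (EVs) of MLP29 cells, a clonal mouse liver progenitor line. The 3 EV plates were given separate EV preparations of about 20 µg of protein, and the 3 control plates were given separate preparations made in the same way from medium without contact with cells. All plates were kept in complete medium freed of serum vesicles, no genetic change was made, and pellets from differential centrifugation can carry material other than vesicles. The libraries are numbered 1, 2 and 3 for the control and 1, 2 and 4 for the EV group, and counts are given in that order.

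Ribosomes are made in the nucleolus. RNA polymerase I transcribes a long precursor RNA there, small nucleolar ribonucleoproteins (snoRNPs) modify it, and helicases, nucleases, GTPases and scaffold proteins fold it, cut it and load it with ribosomal proteins. Box C/D snoRNPs guide ribose methylation and H/ACA snoRNPs guide pseudouridylation. The transcription factor Myc is known to activate many genes of the pathway, and growing fibroblasts use it heavily.

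The 6 libraries held between 508599 and 665465 counts. The genes of the list had a count above 0 in every library and together took between 0.610% and 0.674% of the counts in the control libraries and between 0.534% and 0.562% in the EV libraries. Of 15 fibroblast markers, 14 were counted in every library and Lum was at 0. With EVs 10 of the 14 fell, where 14.3% of all genes tested fell. The summed level of the markers was between 2733 and 3243 normalized CPM (counts scaled to library size) in the control. It was between 1205 and 1593 in the EV libraries. Of 14 markers of liver progenitor and epithelial cells, the type the EVs came from, 8 were at 0 in all 6 libraries. Among these were Epcam, Krt8, Krt18, Krt19, Alb and Afp. Sox9, Spp1 and Met were counted in every library. Only Spp1 was tested, and it fell, with 17, 45 and 39 counts in the control and 7, 9 and 7 in the EV libraries. The summed count of the 14, Spp1 included, was between 37 and 67 in the control and between 21 and 25 in the EV libraries. The part of the fibroblast markers in the results below was not tested. The libraries came from a stranded kit, but the strand setting of the counting is not given in the sources used here. Of the 100 most counted genes, 83 matched the GENCODE annotation and 66 of these (79.5%) had an exon facing an exon of the other strand, against 24.8% of all matched genes. Actb had only 116, 162 and 129 counts in the control and 36, 79 and 75 in the EV libraries. Gapdh had 236, 296 and 258 in the control and 69, 114 and 123 in the EV libraries. Both, which are not genes of the list, thus had fewer counts in every EV library than in any control library. A count is therefore taken here as what is listed under a gene's identifier, and whether it comes from that gene's own transcript was not tested.

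Differences were tested with edgeR's quasi-likelihood test, and a gene was called when its Benjamini-Hochberg adjusted p over all 5066 genes tested was under 0.05. Of the 50 genes, 36 had enough counts to be tested. With EVs, 14 of the 36 fell (38.9%), where 14.3% of all genes tested fell, and 1 rose, Heatr1, where 7.56% of all genes rose. The median log2 fold change was -0.29 over the 36 genes and 0.01 over all genes tested. In 16 of the 36 genes every EV library lay below every control library in normalized CPM, and in 6 every EV library lay above, against 21.5% and 17.8% of all genes tested. In whole cultures, fewer cells of a type and less RNA per cell cannot be told apart.

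These counts depended on single libraries. The number of genes called lower was 9 without EV library 1, without EV library 2 or without EV library 4, 7 without control library 2, 11 without control library 1 and 15 without control library 3. It was 5 with DESeq2's Wald test in place of edgeR (Ncl, Npm1, Nolc1, Nop14 and Gnl3), which also called Heatr1 higher. Of the 36 genes, 29 had all 3 EV libraries above the level of 16.91 CPM that the low-count filter uses, and 9 of these were called lower. The other 7 passed the filter with at least 1 EV library under that level, and 5 of them were called lower (Ddx18, Polr1a, Utp20, Gnl2 and Gnl3). The presence of these 5 among the genes tested is partly a product of their control level, and the 38.9% above includes them. The share that fell among all genes with every EV library above that level was not computed.

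**Figure D1:**
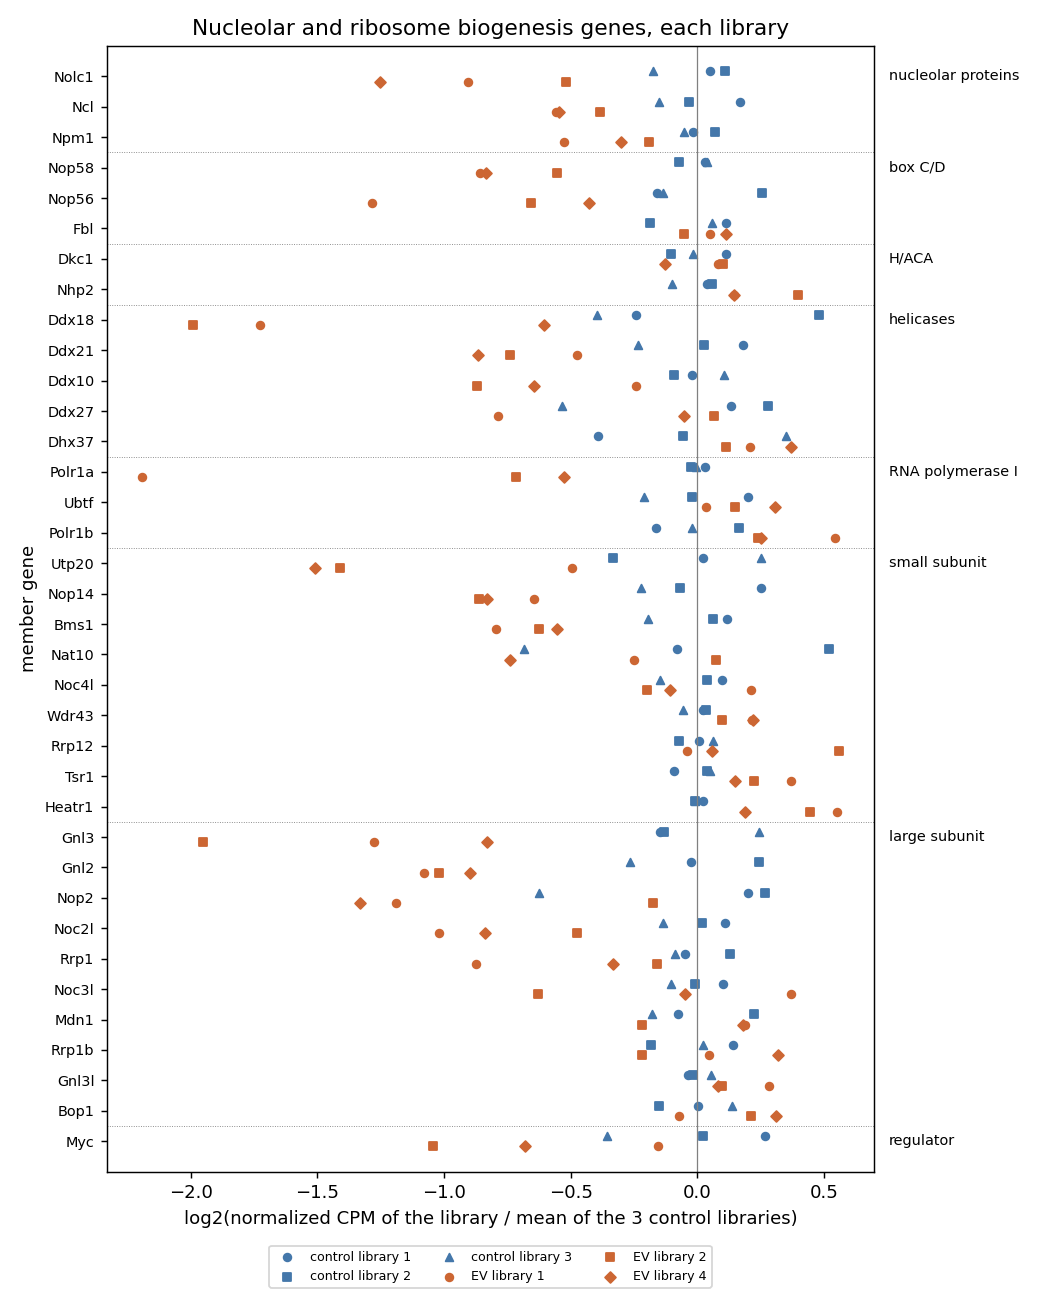
Each of the 36 tested genes in each library, as log2 of its normalized CPM over the mean of the 3 control libraries, ordered by role, with control libraries in blue and EV libraries in orange. Ncl, Nolc1, Nop58 and Nop14 show EV points wholly to the left of the control points, Heatr1 and Tsr1 show them to the right, and the spread between libraries is widest for genes with few counts, such as Ddx18, Polr1a and Gnl3.

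The genes of the 3 nucleolar proteins Ncl, Npm1 and Nolc1 all fell with EVs. Nucleolin (Ncl, chr1:86344719-86359455, minus strand, GRCm38), an RNA-binding protein that acts in polymerase I transcription and early processing, had 701, 694 and 664 counts in the control and 371, 502 and 412 in the EV libraries. All 3 EV libraries were below all controls, with 1098 ± 125 normalized CPM (SD, n = 3) in the control and 780 ± 53.5 (SD, n = 3) in the EV group. The log2 fold change of Ncl was -0.49 with a standard error of 0.097 (edgeR adjusted p = 0.000204). Nucleophosmin (Npm1, chr11:33152498-33164142, minus strand), a chaperone of histones and ribosomal proteins, had 494, 595 and 569 counts in the control and 303, 459 and 391 in the EV libraries. The groups did not overlap, at 879 ± 38.4 and 698 ± 81.3 normalized CPM (SD, n = 3 each), and the log2 fold change was -0.33 ± 0.099 (SE, edgeR adjusted p = 0.0130). The call of Npm1 was lost without EV library 1, its lowest library (log2 fold change -0.20, edgeR adjusted p = 0.184), without EV library 4 (adjusted p = 0.0846) and without control library 2 (adjusted p = 0.0519).

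Nolc1 (chr19:46075847-46085543, plus strand), a phosphoprotein that binds and chaperones snoRNPs of both classes, changed more than Ncl and Npm1. It had 82, 97 and 83 counts in the control and 37, 58 and 32 in the EV libraries. EV library 4 was the lowest in normalized CPM, and even EV library 2, the highest of its group, lay under every control. The level of Nolc1 went from 139 ± 14.0 to 76.7 ± 19.5 normalized CPM (SD, n = 3 each), a 1.80-fold decrease (log2 fold change -0.85, SE 0.18, edgeR adjusted p = 0.000587). Ncl and Nolc1 stayed past the threshold under each alternative run.

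Among the box C/D core proteins, the scaffold pair and the methyltransferase gave different results. Nop58 (chr1:59684961-59711510, plus strand) had 53, 56 and 63 counts in the control and 25, 37 and 28 in the EV libraries, and Nop56 (chr2:130274367-130279313, plus strand), its partner in the scaffold, had 35, 53 and 42 and 14, 26 and 28. Both had EV libraries wholly below the controls. The log2 fold change of Nop58 was -0.73 ± 0.20 (SE, edgeR adjusted p = 0.00679) and that of Nop56 was -0.73 ± 0.24 (SE, edgeR adjusted p = 0.0217). Fibrillarin (Fbl), the methyltransferase of the same particle, had 142, 131 and 162 counts in the control and 119, 133 and 137 in the EV libraries, which overlapped. Its log2 fold change was 0.04 ± 0.13 (SE, edgeR adjusted p = 0.858), and the sign turned with total library size as the scale, with a minimum of 10 counts or without control library 2. The Nop58 call held with any 1 library left out but missed the threshold with DESeq2 (adjusted p = 0.0579). The Nop56 call was lost without EV library 1 (edgeR adjusted p = 0.139), EV library 2 (adjusted p = 0.0506) or control library 2 (adjusted p = 0.133) and with DESeq2 (adjusted p = 0.124).

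No H/ACA protein was called. Dyskerin (Dkc1), the pseudouridine synthase, had 147, 144 and 159 counts in the control and 126, 153 and 120 in the EV libraries, with overlapping groups. Its log2 fold change of 0.03 ± 0.13 (SE, edgeR adjusted p = 0.908) changed sign under 4 alternatives, among them total library size. Nhp2, an RNA-binding protein of the particle, had 52, 60 and 56 counts in the control and 49, 70 and 54 in the EV libraries. After scaling, each EV library of Nhp2 was above each control, by a log2 fold change of 0.24 ± 0.18 (SE, edgeR adjusted p = 0.330) that did not pass. The remaining core proteins were too low to test. Gar1 had 8, 10 and 3 counts in the control and 2, 8 and 1 in the EV libraries, and Nop10 had 4, 3 and 1 and 1, 4 and 2. No difference was detectable with so few counts. The median log2 fold change was -0.73 over the 3 box C/D genes and 0.13 over the 2 H/ACA genes tested, and the difference between these groups of proteins was not tested.

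Of the 7 helicases, 5 were tested and 2 fell. Ddx21 (chr10:62580247-62602298, minus strand), a DEAD-box helicase that works with polymerase I transcripts and snoRNAs, had 45, 46 and 40 counts in the control and 25, 25 and 21 in the EV libraries. Ddx18 (chr1:121553835-121567980, minus strand), which acts on the large subunit, had 16, 30 and 17 in the control and 5, 5 and 12 in the EV libraries. Neither gene had an EV library that reached a control. The log2 fold change was -0.68 ± 0.23 for Ddx21 (SE, edgeR adjusted p = 0.0262) and -1.30 ± 0.37 for Ddx18 (SE, edgeR adjusted p = 0.00874), the lowest value among the 36 genes. EV library 4 of Ddx18 held more counts than the other two together, and without it the log2 fold change was -1.80 (edgeR adjusted p = 0.00513). The Ddx18 call was lost without EV library 2 (edgeR adjusted p = 0.0752) or control library 2 (adjusted p = 0.127). That of Ddx21 was lost without EV library 2, EV library 4, control library 1 or control library 2, at edgeR adjusted p-values between 0.0785 and 0.124. DESeq2 called neither, with adjusted p-values of 0.0744 for Ddx18 and 0.140 for Ddx21.

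The other helicases were not called. Ddx10, a small subunit helicase, had 24, 26 and 31 counts in the control and 18, 14 and 15 in the EV libraries, without overlap after scaling (log2 fold change -0.58, SE 0.28, edgeR adjusted p = 0.123). Ddx27, a large subunit helicase, had 39, 49 and 29 in the control and 18, 39 and 33 in the EV libraries, and its log2 fold change of -0.18 ± 0.24 (SE, edgeR adjusted p = 0.600) became 0.06 without EV library 1. Dhx37, a DEAH-box helicase of the small subunit processome, had 55, 79 and 109 in the control and 73, 82 and 90 in the EV libraries (log2 fold change 0.22, SE 0.17, edgeR adjusted p = 0.343). Its control libraries spread more widely than its EV libraries and enclosed most of them. Ddx47 had 11, 8 and 10 counts in the control and 6, 11 and 7 in the EV libraries, and Ddx56 had 2, 5 and 8 and 2, 1 and 1. Both were under the filter, with overlapping groups.

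The RNA polymerase I genes did not move together. Polr1a (chr6:71909053-71979435, plus strand), the largest subunit and part of the catalytic centre, had 32, 35 and 37 counts in the control and 6, 20 and 21 in the EV libraries. The controls were tight, at 55.2 ± 1.07 normalized CPM (SD, n = 3), and the EV group was wide, at 28.0 ± 14.0 (SD, n = 3), since EV library 1 was far below the others. The log2 fold change was -0.94 ± 0.28 (SE, edgeR adjusted p = 0.0118). Without EV library 1 it was -0.58 and no longer passed (edgeR adjusted p = 0.126), and DESeq2 with all libraries gave an adjusted p of 0.0767. Polr1b, the other large subunit of the catalytic core, had 49, 70 and 64 in the control and 70, 68 and 63 in the EV libraries. The scaled EV values of Polr1b were above all controls, with a log2 fold change of 0.34 ± 0.17 (SE, edgeR adjusted p = 0.143). It passed in 1 alternative, the fit of genes with no exon facing an exon of the other strand (log2 fold change 0.52, edgeR adjusted p = 0.0312). Ubtf, the factor that binds the ribosomal gene promoter, had 81, 79 and 72 in the control and 63, 82 and 84 in the EV libraries, and the groups overlapped (log2 fold change 0.18, SE 0.16, edgeR adjusted p = 0.444).

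Rrn3, which recruits polymerase I to the promoter, was under the filter with 9, 12 and 11 counts in the control and 3, 3 and 2 in the EV libraries. The groups did not overlap, at 16.9 ± 1.46 and 4.91 ± 1.20 normalized CPM (SD, n = 3 each). In the fit without a filter its log2 fold change was -1.67 ± 0.54 (SE, edgeR adjusted p = 0.035). Rrn3 also held 2 copies of the E-box CACGTG, the palindromic letters that Myc and related factors are known to bind, in the 250 bases before its start. Upstream windows of the list that contain this motif and no annotated exon are shown here for Rrn3 (chr16:13780449-13780698, plus strand) and for Nop2 (chr6:125131633-125131882, plus strand), an RNA methyltransferase of the large subunit, from RefSeq on GRCm38.p6, 5′ to 3′ with the motif in capitals.
Rrn3: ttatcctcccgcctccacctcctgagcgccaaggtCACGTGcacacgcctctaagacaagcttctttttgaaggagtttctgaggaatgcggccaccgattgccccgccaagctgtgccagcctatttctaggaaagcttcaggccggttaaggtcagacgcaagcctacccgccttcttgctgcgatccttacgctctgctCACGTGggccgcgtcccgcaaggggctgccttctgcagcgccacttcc
Nop2: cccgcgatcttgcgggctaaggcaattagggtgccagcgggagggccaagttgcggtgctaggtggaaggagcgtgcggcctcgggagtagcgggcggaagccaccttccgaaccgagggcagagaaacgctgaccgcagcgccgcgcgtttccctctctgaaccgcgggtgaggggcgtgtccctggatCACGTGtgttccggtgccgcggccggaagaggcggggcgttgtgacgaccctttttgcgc

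The motif reads the same on both strands, and in Rrn3 it began at positions -215 and -48 and in Nop2 at position -60, counted back from the start site. The promoter table held windows of 300 bases, from 250 before to 50 after the start, for 43 of the 50 genes, and 10 of these (23.3%) contained CACGTG against 8.09% of all 27025 genes of the table. The 10 were Rrn3, Nop2, Nmd3, Ltv1, Mdn1, Pes1, Tsr1, Utp20, Utp4 and Wdr43, of which 5 were tested and 1, Utp20, fell. Nop2 had 21, 25 and 14 counts in the control and 7, 17 and 7 in the EV libraries, with groups that overlapped through control library 3 and EV library 2. Its log2 fold change was -0.75 ± 0.34 (SE, edgeR adjusted p = 0.105). The absence of these letters from a window says nothing of other sites.

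Myc itself (chr15:61985341-61990361, plus strand) had 26, 25 and 20 counts in the control and 17, 11 and 13 in the EV libraries. EV library 1 lay above control library 3 after scaling, so that the groups overlapped. The level was 38.1 ± 8.02 normalized CPM in the control and 25.5 ± 8.02 in the EV group (SD, n = 3 each), and the log2 fold change of -0.59 ± 0.30 (SE) did not pass (edgeR adjusted p = 0.149). It was below 0 and not called under all 13 alternatives, with values between -0.80 and -0.36.

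**Figure D2:**
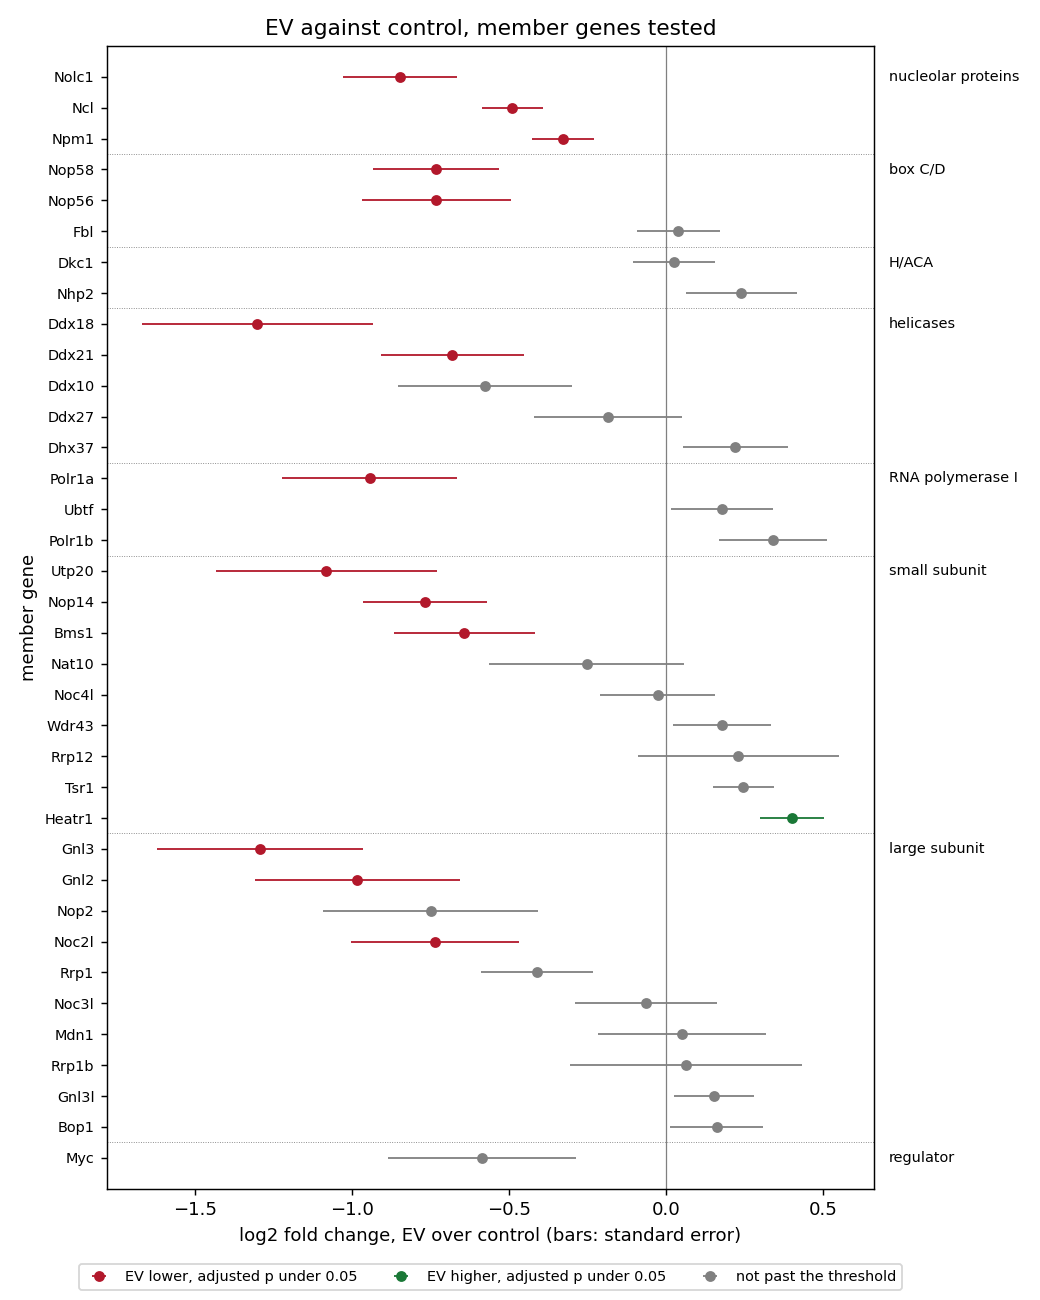
Log2 fold change of EV over control for the 36 tested genes by role, with the standard error as a bar, in red for an adjusted p under 0.05 with EVs lower, in green with EVs higher and in grey otherwise. The 3 nucleolar proteins are all red, Fbl and the H/ACA proteins sit near 0 (Fbl and Dkc1 turn negative with total library size), and Heatr1 is the one green point, at 0.40.

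Of the 14 small subunit factors, 9 were tested, of which 3 fell and 1 rose. Nop14 (chr5:34638536-34660148, minus strand), a protein of the small subunit processome, the large complex on the growing precursor RNA, had 68, 62 and 58 counts in the control and 32, 33 and 31 in the EV libraries. Its EV values were nearly equal, at 58.8 ± 4.90 normalized CPM against 101 ± 17.2 in the control (SD, n = 3 each). The log2 fold change of -0.77 ± 0.20 (SE, edgeR adjusted p = 0.00407) passed under the 12 alternatives that gave a value, at adjusted p-values up to 0.0454. Utp20 (chr10:88746607-88826814, minus strand), a long scaffold protein of the same complex, had 18, 16 and 25 counts in the control and 11, 7 and 6 in the EV libraries (log2 fold change -1.08, SE 0.35, edgeR adjusted p = 0.0218). Its groups did not overlap, but the call was lost without EV library 2, EV library 4, control library 1 or control library 3, at adjusted p-values between 0.0623 and 0.120, and with DESeq2 (adjusted p = 0.141). Bms1 (chr6:118383381-118419802, minus strand), the GTPase of the complex, had 43, 47 and 41 in the control and 20, 27 and 26 in the EV libraries (log2 fold change -0.64, SE 0.22, edgeR adjusted p = 0.0332). Again no EV library reached a control, and the call was lost with any 1 of the EV libraries or control library 1 or 2 left out, at edgeR adjusted p-values between 0.0756 and 0.108, and with DESeq2 (adjusted p = 0.161).

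Heatr1 (chr13:12395375-12438893, plus strand), the mammalian counterpart of yeast Utp10 and also part of the processome, was the 1 gene that rose. It had 341, 379 and 395 counts in the control and 431, 480 and 369 in the EV libraries. The control libraries were almost equal after scaling, at 591 ± 7.44 normalized CPM (SD, n = 3), and each EV library was higher, at 782 ± 98.8 (SD, n = 3), with EV library 4 the closest to the control. The log2 fold change was 0.40 ± 0.10 (SE, edgeR adjusted p = 0.00340). Over the 12 alternatives that gave a value it was between 0.29 and 0.54 and always past the threshold. An exon of Lgals8 on the other strand covers 1.98% of the exon length of Heatr1, and at most 21 counts were listed under Lgals8 in a library. As the strand setting is not given, this value does not show how much Lgals8 RNA there was. Whether any counts of Heatr1 come from Lgals8 was not tested. Tsr1, a late factor of the small subunit, had 392, 487 and 511 counts in the control and 471, 511 and 446 in the EV libraries. After scaling its EV libraries were all above the controls, and the log2 fold change of 0.25 ± 0.096 (SE, edgeR adjusted p = 0.0571) was just over the threshold. The other 4 tested genes of this role, Nat10, Noc4l, Rrp12 and Wdr43, had log2 fold changes of -0.25, -0.03, 0.23 and 0.18, and none was called.

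Of the 14 large subunit factors, 10 were tested and 3 fell, all of them with few counts. Nucleostemin (Gnl3, chr14:31012433-31019131, minus strand), a nucleolar GTPase, had 20, 23 and 31 counts in the control and 8, 6 and 12 in the EV libraries. Its EV libraries were wholly below the controls, at 16.0 ± 5.92 against 39.0 ± 6.18 normalized CPM (SD, n = 3 each). The 2.45-fold decrease of Gnl3 (log2 fold change -1.29, SE 0.33, edgeR adjusted p = 0.00356) passed under every alternative that could be run on it. Gnl2 (chr4:125029989-125055382, plus strand), a related GTPase of the pre-60S particle, had 19, 26 and 19 counts in the control and 8, 10 and 10 in the EV libraries (log2 fold change -0.98, SE 0.33, edgeR adjusted p = 0.0243). The call of Gnl2 was lost with any 1 of the EV libraries or control library 1 or 2 left out, at edgeR adjusted p-values between 0.0563 and 0.117, although the groups did not overlap. Noc2l (chr4:156234655-156247616, plus strand), a partner in early large subunit complexes, had 30, 32 and 30 in the control and 12, 21 and 15 in the EV libraries (log2 fold change -0.74, SE 0.27, edgeR adjusted p = 0.0407). Its call was lost without EV library 1, EV library 4, control library 1 or control library 2, at adjusted p-values between 0.0944 and 0.143. DESeq2 called neither Gnl2 (adjusted p = 0.145) nor Noc2l (adjusted p = 0.184).

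The PeBoW complex, a trio of Pes1, Bop1 and Wdr12 that processes the large subunit precursor, showed no call. Bop1 had 94, 96 and 122 counts in the control and 78, 114 and 112 in the EV libraries, and its groups overlapped (log2 fold change 0.16, SE 0.15, edgeR adjusted p = 0.444). Pes1 had 8, 24 and 18 in the control and 8, 8 and 8 in the EV libraries. Wdr12 had 8, 11 and 6 in the control and 5, 6 and 3 in the EV libraries. Pes1 and Wdr12 were under the filter, and in both the lowest control library lay within the EV range. Rrp1 fell short of the threshold with a log2 fold change of -0.41 ± 0.18 (SE, edgeR adjusted p = 0.0897), and Noc3l, Mdn1, Rrp1b and Gnl3l had values between -0.06 and 0.15.

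Of the 15 genes called, 5 kept their call under every alternative that gave a value, Ncl, Nolc1, Nop14, Gnl3 and Heatr1, 10 lost it under at least 1, and none changed direction. Their largest adjusted p over those alternatives was 0.0448 for Ncl, 0.0258 for Nolc1, 0.0454 for Nop14, 0.0469 for Gnl3 and 0.0493 for Heatr1. These 5 did not face the same alternatives, since 13 gave a value for Ncl and Nolc1, 12 for Nop14 and Heatr1 and 11 for Gnl3. Nop14, Heatr1 and Gnl3 have an opposite-strand overlap and were left out of the fit of genes without one. Gnl3 was also left out by the minimum of 10 counts. Without the low-count filter the calls of Npm1, Nop56, Ddx21, Utp20, Gnl2, Bms1 and Noc2l were lost, at edgeR adjusted p-values between 0.0686 and 0.213, and among genes with no opposite-strand exon those of Npm1, Nop58, Ddx21, Utp20 and Bms1 were lost, at values between 0.0522 and 0.355. EV library 1 was the lowest EV library in 8 of the 14 genes that fell, EV library 2 in 3 and EV library 4 in 3.

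The 14 untested genes had at most 24 counts in any library. In all 14 of them the mean normalized CPM was lower with EVs, and in 3 the groups did not overlap. These were Rrn3, Utp14a, with 12, 16 and 11 counts in the control and 3, 4 and 7 in the EV libraries, and Nmd3, the export adaptor of the large subunit, with 5, 11 and 10 and 3, 5 and 3. Without a filter their log2 fold changes were between -1.67 and 0.09, 4 had an unadjusted p under 0.05 and 1, Rrn3, passed the adjusted threshold. The matching shares over all genes under the filter were not computed. Low counts leaned the same way across the table. Between 12529 and 12877 genes were above 0 in the control libraries and between 11624 and 12262 in the EV libraries. The median log2 fold change of all genes was -0.13 without a filter.

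The genes differed widely in level. Per kilobase of annotated exon, the control level was highest for Npm1 (330 normalized CPM per kb), Tsr1 (191), Ncl (108), Nhp2 (77.8) and Heatr1 (75.5), and lowest for Wdr12 (1.12) and Nmd3 (1.34). The H/ACA pair Nhp2 and Dkc1 (58.1) stood near Fbl (54.9), while Nop56 (16.8) and Nop58 (8.48), which share a particle with Fbl, were well below it. Polr1b (16.6) and Ubtf (18.9) were above Polr1a (4.65) and Rrn3 (3.92), and the helicases Ddx10, Ddx18, Ddx21 and Ddx27 lay between 13.0 and 13.7. With EVs the order of the top 2 was the same, and Heatr1 (99.9) passed Nhp2 (91.5) and Ncl (76.6). These ranks rest on the union of annotated exons, which is long for Ncl, Nop58 and Polr1a.

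The list was also described by opposite-strand overlap. An exon of the other strand faced an exon in 17 of the 50 genes, of which 13 were tested, 6 fell and 1 rose, with a median log2 fold change of 0.03. The other 33 gave 23 tested genes, of which 8 fell and none rose in edgeR, with a median of -0.33. Over all tested genes, 9.44% of those with such an overlap fell and the median was 0.13, against 19.6% and a median of -0.21 for those without. In the list the share that fell was 46.2% among tested genes with an overlap and 34.8% among those without. The order of these shares was thus the reverse of that over all tested genes, while the order of the medians was the same. Fitted among such genes alone, Ncl, Nolc1 and Ddx18 were called lower and Polr1b higher, in a fit that is centred on genes whose own median had been below 0.

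**Figure D3:**
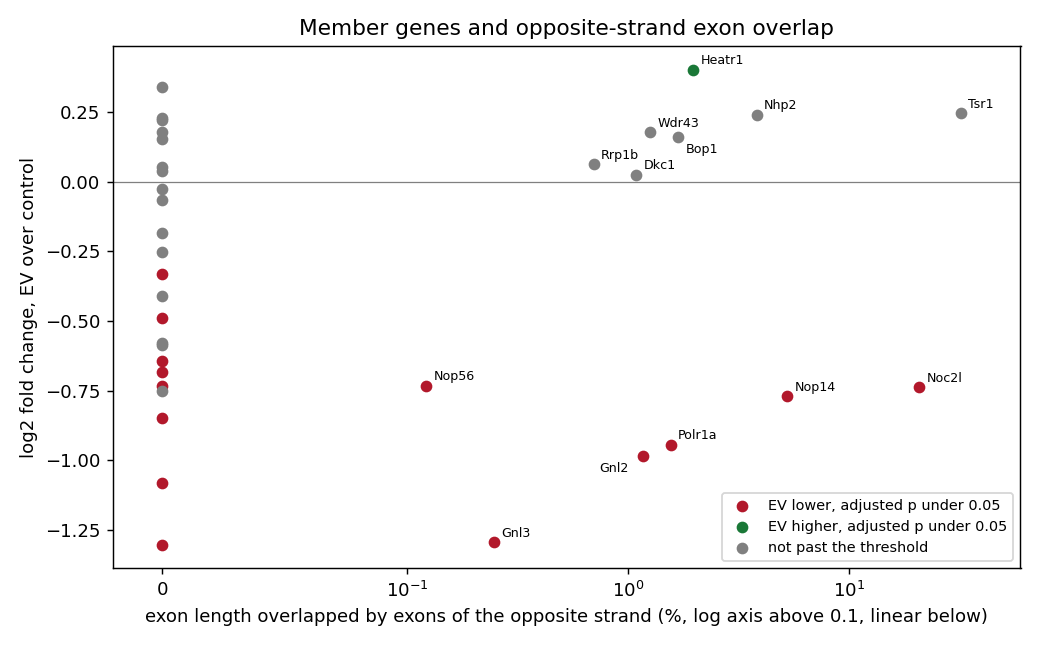
Log2 fold change of EV over control for the 36 tested genes against the percentage of the gene's exon length that faces an exon of the other strand, on an axis that is linear below 0.1 and logarithmic above, with calls in red (EV lower), green (EV higher) and grey (not called). Tested genes with an overlap lie either near or above 0, from Dkc1, whose sign turns with total library size, to Heatr1, or at -0.73 and below, from Nop56 to Gnl3, and the 2 with the longest overlap, Tsr1 and Noc2l, lie on opposite sides.

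In 3 genes the overlap was over 10% of the exon length. Srr faced 32.3% of Tsr1 and had 1539, 1713 and 1883 counts in the control and 1606, 1931 and 1785 in the EV libraries. Samd11 faced 20.9% of Noc2l and had 655, 723 and 899 in the control and 684, 929 and 790 in the EV libraries. The noncoding gene 9530027J09Rik faced 11.5% of Utp14a and had 444, 415 and 495 in the control and 443, 528 and 478 in the EV libraries. All 3 genes across were counted more than the gene of the list and rose with EVs, by log2 fold changes of 0.25 (edgeR adjusted p = 0.0183), 0.28 (adjusted p = 0.0220) and 0.30 (adjusted p = 0.0226), while Noc2l fell, and the mean level was lower for the untested Utp14a and higher for Tsr1, which was not called. These pairs were picked after their values were seen, and the part of the strand in the result was not tested.

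**Figure D4:**
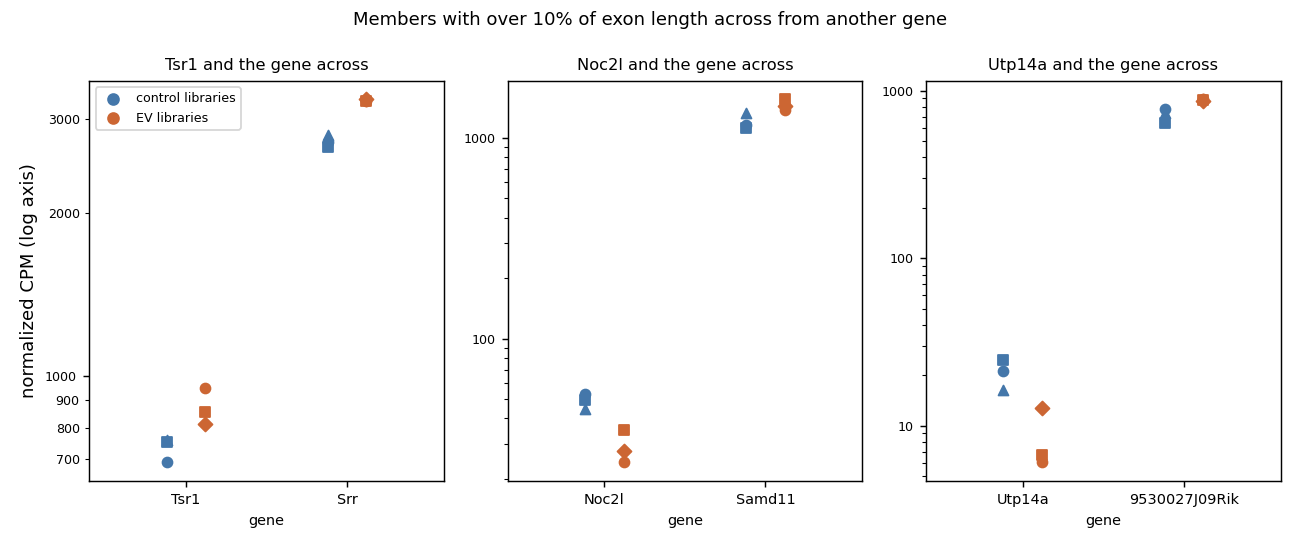
Normalized CPM on a log axis of Tsr1, Noc2l and Utp14a and of the gene across from each, with 1 point per library (circle for library 1, square for 2, triangle for 3, diamond for 4), control in blue and EV in orange. The 3 genes across, Srr, Samd11 and 9530027J09Rik, all lie above their partner and shift up with EVs, whereas Noc2l and Utp14a shift down.

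Several of the genes carry snoRNA genes within their span on the same strand, so that transcript and guide RNA come from 1 locus. This held for 7 of the 50 (14.0%), Ncl, Nop56, Nop58, Dkc1, Wdr43, Tsr1 and Gnl3, against 1.31% of 20285 protein-coding genes. Of the 7, which were all tested, 4 fell (57.1%: Ncl, Nop56, Nop58 and Gnl3) and the others were not called. Among tested genes of the list without a snoRNA gene 34.5% fell, and among all genes tested 14.3%. The difference between these shares was not tested. The snoRNAs that had a row were at 0 or 1 counts in every library, except Snord91a in Tsr1, singled out after its values were seen, with 2, 2 and 2 counts in the control and 5, 5 and 6 in the EV libraries. The libraries were made from purified mRNA, so these counts do not show the level of the snoRNAs.

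Other genes of ribosome assembly, listed by role, showed a smaller share of calls. Of 133 such genes, 70 were tested and 8 fell (11.4%, close to the 14.3% of all genes). In the other direction 4 rose, where 7.56% of all genes tested rose, and the median log2 fold change was -0.05. By role, 2 of 6 further polymerase I genes (Taf1d and Tcof1), 1 of 18 small subunit genes (Wdr46) and 5 of 26 large subunit genes (Rsl1d1, Pa2g4, Ftsj3, Rrs1 and Mybbp1a) fell, and none of the 6 snoRNP assembly genes, the 8 other helicases or the 6 exosome genes fell. Rsl1d1, a nucleolar protein with a ribosomal L1 domain, had 24, 39 and 25 counts in the control and 7, 7 and 9 in the EV libraries (log2 fold change -1.72, SE 0.33, edgeR adjusted p = 0.000106). Pa2g4, which binds the ribosome and shuttles through the nucleolus, had 22, 33 and 44 and 8, 11 and 15 (log2 fold change -1.33, SE 0.29, edgeR adjusted p = 0.000900). Ftsj3, an RNA methyltransferase of pre-ribosomes, had 40, 54 and 37 and 14, 18 and 22 (log2 fold change -1.07, SE 0.25, edgeR adjusted p = 0.00138). None of these had EV libraries that reached a control.

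Of the 4 that rose, the helicase Ddx49 had 775, 957 and 1109 counts in the control and 898, 1186 and 1082 in the EV libraries (log2 fold change 0.36, SE 0.088, edgeR adjusted p = 0.00246). Cebpz, the partner of Noc2l, had 180, 221 and 214 in the control and 209, 275 and 225 in the EV libraries (log2 fold change 0.40, SE 0.11, edgeR adjusted p = 0.00825). Tsr2, a small subunit factor, had 505, 591 and 667 in the control and 564, 709 and 616 in the EV libraries (log2 fold change 0.30, SE 0.091, edgeR adjusted p = 0.0137). The EV libraries of Ddx49, Cebpz and Tsr2 were all above the controls, and those of Bysl overlapped them. All 4, Bysl included, faced an exon of the other strand, over 29.9% of the exon length of Ddx49, 30.3% of Tsr2, 9.37% of Bysl and 3.67% of Cebpz, and 2 of the 8 that fell did. The same split held over all tested genes with annotated exons. Of those that rose, 254 had such an overlap and 66 had none, and of those that fell, 195 had one and 515 had none.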

How the data were processed

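RNA-seq libraries of 3T3-L1 cells treated with EVs (3 libraries) or with a control preparation (3 libraries) were analysed. Read quality was assessed with FastQC, alignment to mm10 (GRCm38) was done with STAR and counting with Rsubread by the authors, and the deposited values are raw counts per gene, as whole numbers without normalization. Versions, annotation release, strand setting and treatment of multiply mapped reads are not given in the sources used here. The table held 23725 Entrez identifiers, and 0 of its columns were left unused. RefSeq symbols were found for 99.8% of identifiers and GENCODE vM21 exons for 88.7%, both on GRCm38, and these gave positions, exon length and opposite-strand overlap.

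Counts were filtered with filterByExpr, scaled with TMM factors and tested with the quasi-likelihood test of edgeR 4.0.16 in R 4.3.3, two-sided, without covariates. P-values were adjusted by Benjamini-Hochberg over the 5066 genes tested, with a threshold of 0.05. Normalized CPM use the TMM factors, and standard errors are the log2 fold change over the square root of the F statistic. Plates received separate preparations, so p-values measure the spread between these preparations. Libraries of the same group differed beyond sampling noise (chi-square over its degrees of freedom from 1.15 to 1.76), and none was counted as a duplicate. Totals were between 508599 and 665465 counts a library, and precision is lowest for genes with few counts. The scripts were tested on simulated data.

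Alternative settings were DESeq2's size factors and total library size as the scale, the Wald test of DESeq2 1.42.0, no filter, at least 10 counts in every library, the replicate number as a block, a fit of genes without opposite-strand exon overlap, and each library left out in turn. The genes, the lists and the tests were chosen with earlier results of these data known. Full values are given for the nucleolar proteins, snoRNP core proteins, helicases, polymerase I genes and Myc, for up to 6 other genes of the list per direction by adjusted p, and for up to 3 other pathway genes in each direction. Other genes are named where they belong to a complex described or to a count of few genes, and opposite-strand partners were chosen after their values were seen.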

Additional observations from a re-analysis of the deposited data

How the results depend on the processing

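With DESeq2's size factors 2 genes of the list were called higher in place of 1. With total library size as the scale the median log2 fold change of all genes moved by -0.111 to -0.10, 913 genes were called lower and 124 higher in place of 723 and 383, the median of the list was -0.40, and Fbl (-0.071) and Dkc1 (-0.087) turned negative. DESeq2's Wald test called 539 genes (294 lower, 245 higher), 6 of the list (5 lower) and 7 of the other ribosome assembly genes. Without a filter 9 of the list were called (8 lower), with medians of -0.36 for the list, -0.30 for polymerase I genes and -0.13 for all genes. A minimum of 10 counts per library, which tests fewer genes, gave 615 calls (473 lower, 142 higher), 9 of the list lower and 7 of the other assembly genes, with a median of -0.15 for the list, -0.043 for Fbl and -0.058 for Dkc1. Among genes with no opposite-strand exon 535 were called (312 lower, 223 higher), 4 of the list (3 lower) and 4 of the other assembly genes, with medians of -0.15 for the list, 0.12 for its large subunit genes and -0.022 for all genes.

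With each library left out in turn between 460 and 1159 genes were called (395 to 795 lower, 65 to 420 higher), between 8 and 16 of the list (7 to 15 lower, 1 to 2 higher) and between 7 and 13 of the other assembly genes, and the median of the list was between -0.49 and -0.21. The fewest calls came without control library 2 and the most without control library 3. Over these fits the median ranged from -0.043 to 0.0055 for all genes, from -0.51 to 0.21 for polymerase I genes and from -0.34 to 0.081 for small subunit genes, and the log2 fold change from -0.081 to 0.11 for Fbl, from -0.058 to 0.14 for Dkc1 and from -0.43 to 0.059 for Ddx27. The cause of these shifts was not tested.

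The replicate numbers 1 and 2 occur in both groups, and same-numbered libraries deviated together by correlations of 0.07 and 0.06. The other pairs of a control and an EV library had correlations between -0.097 and 0.054. Whether same-numbered libraries share more than a number cannot be told from values this small. With the replicate number as a block 1100 genes were called, 14 of the list (12 lower, 2 higher), the median of the list was -0.43, the log2 fold change of Ddx18 was -2.02, and Utp20 (adjusted p = 0.214) and Noc2l (adjusted p = 0.0732) lost their call in edgeR. Genes with few counts carried the widest errors, and 14 of the 50 had too few counts to be tested.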
